A study of Mus musculus with 10 samples.

Results

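Integrin subunits that carry the proposed receptor of irisin were followed in the dentate gyrus of mice with and without the gene of the irisin precursor. The dentate gyrus is the part of the hippocampus that contains the granule neurons. The 6 subunits are the alpha chains Itgav and Itga5 and the beta chains Itgb1, Itgb3, Itgb5 and Itgb8, taken by gene symbol and not by their values. All 6 were found among the 24982 rows of the count table, which spells them in capitals as ITGAV, ITGA5, ITGB1, ITGB3, ITGB5 and ITGB8. The animals were 5 mice with a global knockout of Fndc5 (KO) and 5 wild-type mice (WT), all male, on the C57BL/6 background and 10 weeks old. The labels name no treatment. The sources used here do not say how the knockout allele was made or whether the mice were littermates. Each mouse gave 1 library of 26226375 to 43802079 counts.

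Integrins are receptors made of 1 alpha and 1 beta chain that span the cell membrane and bind matrix proteins outside the cell and the actin cytoskeleton inside it. The alpha-V chain pairs with beta-1, beta-3, beta-5, beta-6 or beta-8, while alpha-5 pairs with beta-1 alone to form the classical fibronectin receptor. Irisin, the secreted part of the Fndc5 protein, was reported to act through alpha-V integrins in bone and fat cells, above all alpha-V beta-5. In the brain, astrocytes, microglia and vessel cells are known to express alpha-V integrins, and alpha-V beta-8 is known for releasing active TGF-beta from its latent complex.

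The promoters of Itgav, Itgb1 and Itgb5 are shown because these were the most abundant subunits and moved together over the 10 mice, largely through 1 mouse. That of Itga5 is shown because over the 10 mice it did not move with them. Without KO mouse 3 the contrast did not hold for Itgav, at a Pearson r of -0.0848 with Itgb5 and 0.393 with Itga5. For Itgb1 it held, at 0.534 with Itgav, 0.162 with Itgb5 and -0.188 with Itga5. Each window runs from 250 bases before to 50 bases after the RefSeq gene start (GRCm38.p6), 5′ to 3′ on the gene's own strand, and capitals mark each GC box, searched as GGGCGG and its reverse complement CCGCCC.
Itgav, chr2:83724147-83724446, plus strand: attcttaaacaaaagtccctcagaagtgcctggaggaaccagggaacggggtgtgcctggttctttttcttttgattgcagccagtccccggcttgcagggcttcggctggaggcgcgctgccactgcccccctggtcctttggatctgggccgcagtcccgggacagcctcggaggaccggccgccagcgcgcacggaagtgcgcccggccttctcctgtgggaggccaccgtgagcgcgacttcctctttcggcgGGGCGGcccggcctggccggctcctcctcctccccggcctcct
Itgb1, chr8:128685404-128685703, plus strand: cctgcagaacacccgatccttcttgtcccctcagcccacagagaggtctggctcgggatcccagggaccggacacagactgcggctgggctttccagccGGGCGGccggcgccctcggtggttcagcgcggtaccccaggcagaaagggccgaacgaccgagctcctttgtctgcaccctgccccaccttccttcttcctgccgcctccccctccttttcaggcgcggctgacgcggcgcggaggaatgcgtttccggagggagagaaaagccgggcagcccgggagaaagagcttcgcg
Itgb5, chr16:33829415-33829714, plus strand: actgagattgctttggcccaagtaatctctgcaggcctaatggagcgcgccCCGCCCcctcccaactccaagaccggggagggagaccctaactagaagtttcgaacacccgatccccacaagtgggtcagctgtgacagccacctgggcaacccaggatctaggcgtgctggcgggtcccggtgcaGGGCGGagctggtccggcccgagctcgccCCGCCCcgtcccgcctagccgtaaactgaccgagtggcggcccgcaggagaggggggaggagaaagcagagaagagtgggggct
Itga5, chr15:103366742-103367041, minus strand: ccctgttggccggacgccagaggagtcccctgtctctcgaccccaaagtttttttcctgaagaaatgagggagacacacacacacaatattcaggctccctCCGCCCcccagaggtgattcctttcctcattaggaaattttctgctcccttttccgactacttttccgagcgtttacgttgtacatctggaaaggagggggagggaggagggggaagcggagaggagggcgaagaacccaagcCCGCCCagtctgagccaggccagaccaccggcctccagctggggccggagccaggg
The GC box occurred 1 time in the window of Itgav, 1 time in that of Itgb1, 3 times in that of Itgb5 and 2 times in that of Itga5, and 35.7% of 32851 RefSeq windows of this length held at least 1. Neither TATAAA or its reverse complement TTTATA, present in 13.6% of all windows, nor CCAAT or its reverse complement ATTGG, present in 37.4%, occurred in these 4, so no motif overlapped another. The windows of Itgb1, Itgav and Itgb5 held 27, 24 and 20 CG dinucleotides and that of Itga5 held 13, against a median of 7 over all windows. The window of Itgb8, not printed, held 0 GC boxes, 1 CCAAT box and 13 CG dinucleotides, and no window was available for Itgb3. A match to these letters is a description of the window only.

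Fndc5, on chromosome 4, served as the check of the labels. It was counted at 45.4 to 56.7 CPM (counts scaled to library size) in KO mice and 69.2 to 80.3 CPM in WT mice, and the groups did not overlap. The log2 fold change, KO over WT throughout, was -0.55 (SE 0.0569, edgeR adjusted p 0.000495), so that transcript counts of the gene fell to 68.1% of the WT level. The counts are per gene and do not show which exons the remaining reads come from. The tissue label was compared with marker genes: the 8 granule neuron markers were all counted and summed to 1883.8 to 2073.6 CPM in KO mice and 1736.6 to 1994.4 CPM in WT mice, with Prox1, the transcription factor of granule cell identity, at 367 ± 26.8 CPM in KO and 366 ± 35.7 CPM in WT mice (SD, n = 5 each). WT mouse 1 had the lowest granule neuron sum (1736.6 CPM, the other WT mice 1954.6 to 1994.4) and the highest sum of GABAergic interneuron markers (725.5 CPM, the other WT mice 631.9 to 655.7). KO mouse 3, and in the other direction KO mouse 2, stood apart for the integrins themselves, as described below.

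None of the 6 subunits differed between genotypes past the threshold. With the edgeR quasi-likelihood test and Benjamini-Hochberg adjustment over the 14867 genes tested, 0 of 6 had an adjusted p under 0.05, where 1 gene in all (0.00673%), Fndc5, did. At an unadjusted p under 0.05 the number was also 0 of 6, against 6.29% of all genes, and 0 of 6 had KO and WT mice that did not overlap, against 0.895% of all genes. DESeq2 and limma-voom likewise called 0 of 6 at either level. Fitted values were above 0 for 1 subunit and below 0 for 5, where 50.7% of all genes were above 0, with a median log2 fold change of -0.042, beside 0.0016 over all genes. In a bulk sample, fewer cells that carry a transcript and less transcript per cell cannot be told apart.

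**Figure D1:**
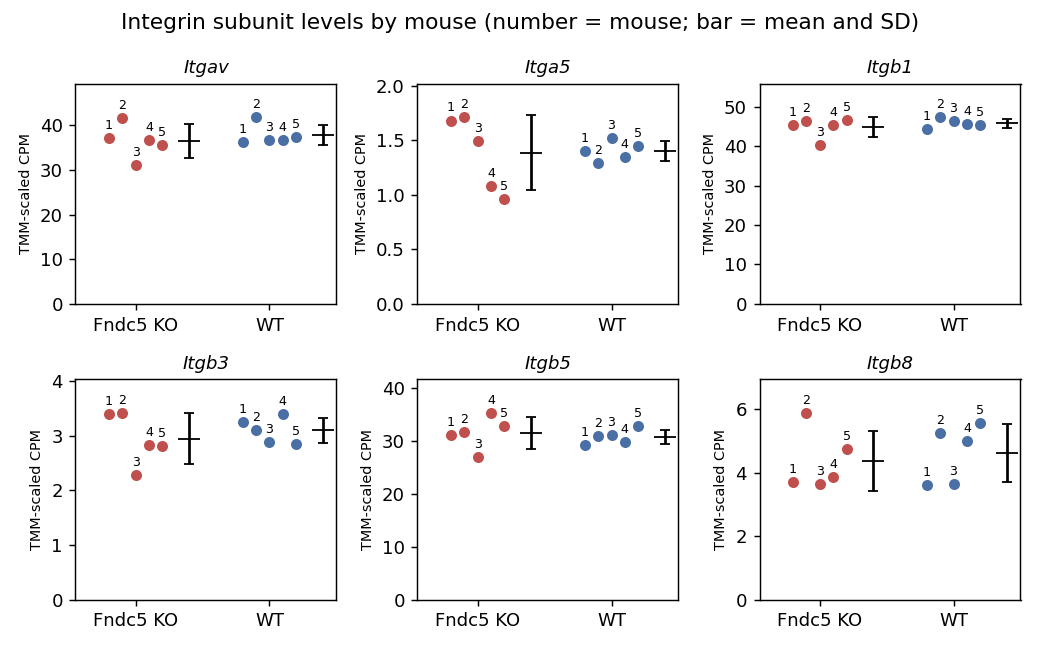
TMM-scaled CPM (y axis, from 0) of each subunit in 5 Fndc5 KO mice (red) and 5 WT mice (blue), with the mouse number above each point and the mean and SD as a bar. The genotypes overlap in all 6 panels, and KO mouse 3 is the lowest of 10 mice for Itgav, Itgb1, Itgb3 and Itgb5.

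The alpha-V chain, shared by most of the proposed irisin receptors, lies on chromosome 2 from 83724397 to 83806916 (GRCm38, plus strand). Itgav was measured at 37.1, 41.7, 31.1, 36.8 and 35.6 CPM in KO mice 1 to 5 and at 36.3, 41.8, 36.6, 36.8 and 37.4 CPM in WT mice 1 to 5. The highest mouse of each genotype, both numbered 2, reached nearly the same level, and KO mouse 3 lay below all others. The means were 36.5 ± 3.79 CPM in KO and 37.8 ± 2.26 CPM in WT mice (SD, n = 5 each), a log2 fold change of -0.05 (SE 0.0656, 95% interval -0.19 to 0.09, edgeR adjusted p 0.905, exact two-sided permutation p 0.437). KO mice thus kept 96.5% of the WT level, with a 95% interval of 87.7% to 106%. Without KO mouse 3 the fold change was 0.0026.

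The alpha-5 chain, which pairs with beta-1 to bind fibronectin, was the scarcest of the 6. Itga5 (chromosome 15, 103344286 to 103366763, minus strand) gave only 53, 52, 52, 32 and 25 counts in KO mice 1 to 5, and 46, 37, 67, 40 and 39 counts in WT mice 1 to 5. Scaled, this was 1.68, 1.71, 1.49, 1.08 and 0.962 CPM in KO and 1.40, 1.29, 1.52, 1.35 and 1.45 CPM in WT mice. KO mice 4 and 5 lay below every WT mouse and KO mice 1 and 2 above every WT mouse, while the means were 1.38 ± 0.346 CPM in KO and 1.40 ± 0.0895 CPM in WT mice (SD, n = 5 each). The fitted log2 fold change was -0.01 (SE 0.171, edgeR adjusted p 0.994, exact permutation p 0.746). Its 95% interval was -0.37 to 0.35, so that any change within these bounds was compatible with the counts of these mice. The sign of the fold change turned when KO mouse 4, KO mouse 5 or WT mouse 3 was left out (0.06, 0.08 and 0.03).

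Beta-1, the partner of the largest number of alpha chains and the most abundant of the 6, was the most evenly measured. Itgb1 lies on chromosome 8 from 128685654 to 128733200 (plus strand). KO mice 1 to 5 had 45.3, 46.3, 40.3, 45.3 and 46.6 CPM, and WT mice 1 to 5 had 44.3, 47.3, 46.3, 45.6 and 45.4 CPM. All mice except KO mouse 3 fell between 44.3 and 47.3 CPM. Genotype means of 44.8 ± 2.58 CPM in KO and 45.8 ± 1.09 CPM in WT mice (SD, n = 5 each) gave a log2 fold change of -0.03 (SE 0.0454, 95% interval -0.13 to 0.06, edgeR adjusted p 0.913, exact permutation p 0.595). That interval, 91.4% to 104% of the WT level, was the narrowest of the 6. Without KO mouse 3 the fold change was 0.0037.

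Beta-5, the partner of alpha-V in the receptor most often named for irisin, was the single subunit with a fitted value above 0. Itgb5 (chromosome 16, 33829665 to 33949338, plus strand) stood at 31.0, 31.6, 26.9, 35.2 and 32.8 CPM in KO mice 1 to 5 and at 29.1, 30.9, 31.0, 29.8 and 32.7 CPM in WT mice 1 to 5. KO mice held both the lowest and the 2 highest values, with mouse 3 at the bottom and mouse 4 at the top. On average the gene was at 31.5 ± 3.00 CPM in KO and 30.7 ± 1.37 CPM in WT mice (SD, n = 5 each), with a log2 fold change of 0.04 (SE 0.0617, 95% interval -0.09 to 0.17, edgeR adjusted p 0.935, exact permutation p 0.659). Without KO mouse 4 it was -0.01.

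Beta-3, best known from platelets and bone-resorbing cells, and beta-8, the partner of alpha-V in TGF-beta activation, were both scarce. Itgb3 (chromosome 11, 104608000 to 104670476, plus strand) was at 3.40, 3.42, 2.29, 2.83 and 2.81 CPM in KO mice 1 to 5, against 3.25, 3.11, 2.89, 3.40 and 2.86 CPM in WT mice 1 to 5. The range of the KO mice enclosed that of the WT mice, and the fitted log2 difference was -0.07 (SE 0.123, 95% interval -0.33 to 0.19, edgeR adjusted p 0.935, exact permutation p 0.524). Without KO mouse 3 it was 0.01. Itgb8 (chromosome 12, 119158022 to 119238802, minus strand) was at 3.72, 5.88, 3.64, 3.87 and 4.73 CPM in KO mice 1 to 5, against 3.62, 5.24, 3.64, 4.99 and 5.57 CPM in WT mice 1 to 5. Its mice spread widely in both genotypes, and a log2 fold change of -0.07 was fitted (SE 0.155, 95% interval -0.40 to 0.26, edgeR adjusted p 0.952, exact permutation p 0.746). Without WT mouse 5 it was 0.01.

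**Figure D2:**
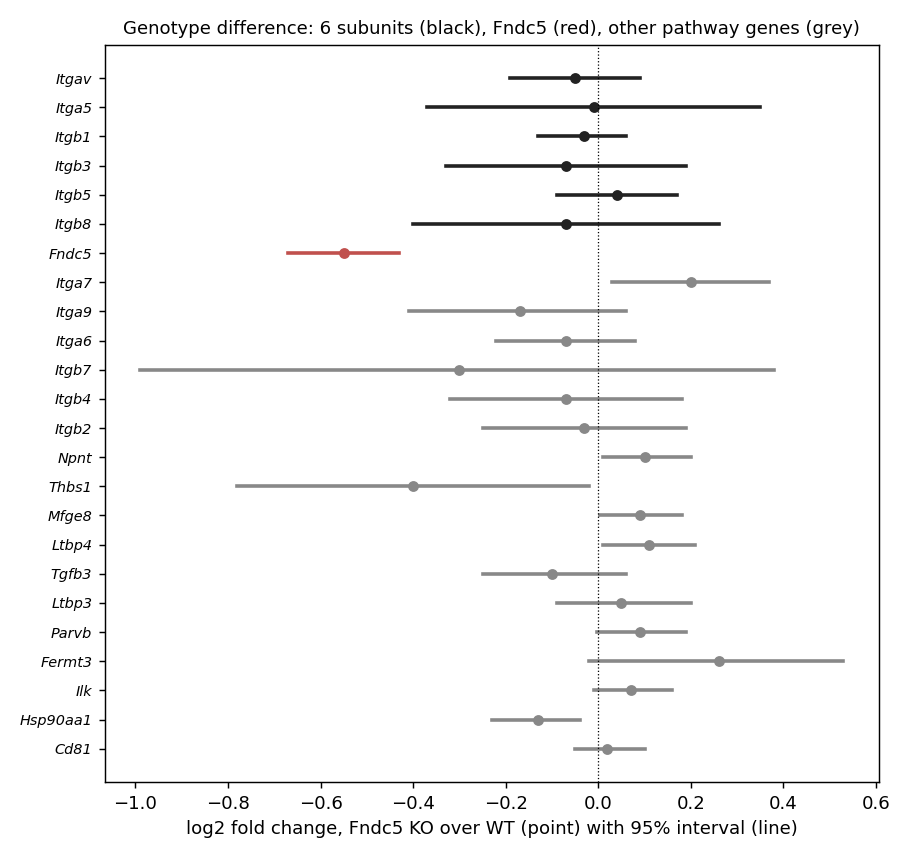
Log2 fold change, Fndc5 KO over WT (x axis), with its 95% interval from the edgeR fit, for the 6 subunits (black), Fndc5 (red) and the named genes of the other integrin pathway lists (grey). The intervals of all 6 subunits cross 0, from -0.13 to 0.06 for Itgb1 to -0.37 to 0.35 for Itga5, while that of Fndc5 runs from -0.67 to -0.43. Among the grey genes, named by the smallest p of their lists, the intervals of Itga7, Npnt, Mfge8 and Ltbp4 lie above 0. Those of Thbs1 and Hsp90aa1 lie below 0, and no grey gene passed the adjusted threshold.

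Levels of different genes were compared as CPM per kb of annotated exon, a value that depends on the length chosen. Itgb1 stood highest at 11.0 ± 0.632 in KO and 11.2 ± 0.267 CPM per kb in WT mice (SD, n = 5 each), followed by Itgb5 at 8.87 ± 0.845 in KO and 8.64 ± 0.384 in WT mice and Itgav at 3.39 ± 0.353 in KO and 3.52 ± 0.211 in WT mice. A wide gap separated these from Itgb3 (0.500 ± 0.0798 in KO and 0.526 ± 0.0395 in WT mice), Itgb8 (0.395 ± 0.0860 in KO and 0.417 ± 0.0832 in WT mice) and Itga5 (0.281 ± 0.0701 in KO and 0.284 ± 0.0182 in WT mice). Within single mice Itgb1 exceeded Itgb5 in 10 of 10, by 1.27 ± 0.0662 times (SD, n = 10), although their ranges over all mice touched. Itgb5 exceeded Itgav by 2.54 ± 0.204 times and Itgav exceeded Itgb3 by 6.78 ± 0.571 times, with ranges that did not overlap. With the length of the longest annotated transcript Itgav was at 5.26 in place of 3.45 CPM per kb over all mice, and these ratios were 1.81 ± 0.145 and 10.1 ± 0.853, again without overlap.

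Neighbours among the lower 3 overlapped, while Itgb3, at 0.389 to 0.579 CPM per kb, and Itga5, at 0.195 to 0.346, did not. Itgb3 was above Itgb8 in 9 of 10 mice, with Itgb8 at 0.327 to 0.532 CPM per kb, and Itgb8 was above Itga5 in 9 of 10 mice, with overlapping ranges too. Both comparisons rested on the length used. With the length of the longest annotated transcript in place of all exons, Itgb3 was above Itgb8 in 4 of 10 mice, and their means were 0.523 and 0.534 CPM per kb. Itgb8 was then above Itga5 in 10 of 10 mice, with ranges of 0.431 to 0.700 and 0.218 to 0.387 CPM per kb that did not overlap.

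**Figure D3:**
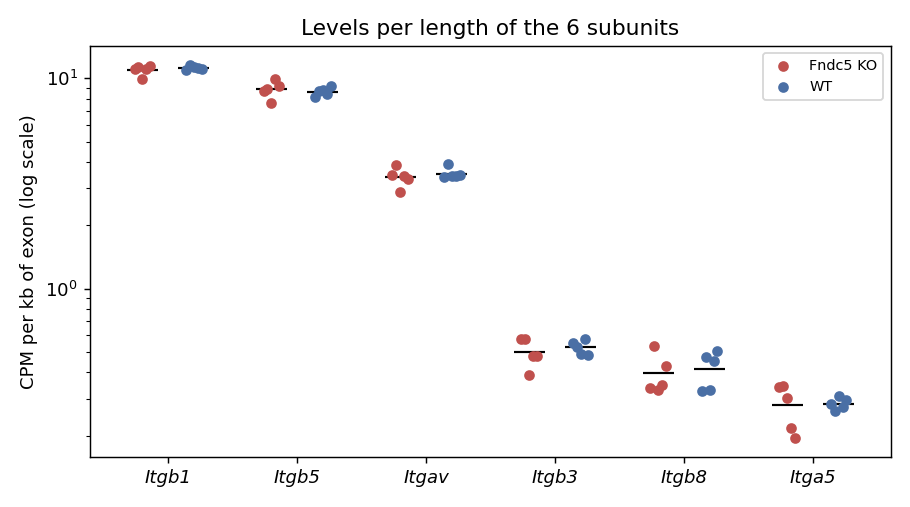
CPM per kb of exon (y axis, log scale) of the 6 subunits in order of their mean, with each KO mouse (red, left) and WT mouse (blue, right) as a point and group means as lines. Itgb1, Itgb5 and Itgav lie above 2.8 in every mouse and Itgb3, Itgb8 and Itga5 below 0.6.

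Among the 4 beta chains, Itgb1 made up 53.0 ± 1.28% of their summed level per length in KO and 53.9 ± 0.978% in WT mice, and Itgb5 made up 42.7 ± 1.52% in KO and 41.5 ± 1.00% in WT mice (SD, n = 5 each). Itgb3 held 2.41 ± 0.311% in KO and 2.53 ± 0.241% in WT mice, and Itgb8 held 1.90 ± 0.363% in KO and 2.00 ± 0.364% in WT mice. The ranges of the genotypes overlapped for all 4. Itgav exceeded Itga5 by 12.7 ± 3.39 times in KO and 12.4 ± 1.44 times in WT mice. These are shares of transcript and not of receptor, since each beta chain except beta-5 and beta-8 also has partners outside the 6.

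Within the whole integrin family, Itgb1 and Itgb5 held ranks 1 and 2 of 8 beta chains by level per length, and Itgb3 and Itgb8 held ranks 4 and 6, or 5 and 4 with the longest transcript as length. Among 18 alpha chains Itgav held rank 4 with either length. By exon length it came after the laminin receptor chain Itga7 (8.15 CPM per kb over all mice), the nephronectin receptor chain Itga8 (6.38) and the myeloid chain Itgam (4.37). Itga5 held rank 11. Of the 16 other alpha chains 12 passed the low-count filter, and 0 rose or fell past the threshold. Itga7 had the smallest p among them, at 70.6 ± 9.20 CPM in KO and 61.3 ± 6.15 CPM in WT mice (SD, n = 5 each, log2 fold change 0.20, SE 0.0806, edgeR unadjusted p 0.0227, adjusted p 0.788). Itga9, a receptor chain for tenascin and other ligands, was at -0.17 (SE 0.112, edgeR adjusted p 0.806) and Itga6, another laminin receptor chain, at -0.07 (SE 0.0708, edgeR adjusted p 0.883). The other beta chains, of which 3 of 4 passed the filter, showed 0 calls: the leukocyte chains Itgb7 and Itgb2 had log2 fold changes of -0.30 (SE 0.325) and -0.03 (SE 0.104), and the laminin receptor chain Itgb4 had -0.07 (SE 0.119). With WT mouse 5 left out Itgb4 was at 0.01 and Itgb2 at 0.05. The partner Itgb6 of alpha-V did not pass the filter, with 12 counts over all 10 libraries.

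Ligands outside the cell and adaptors inside it are the other parts of the pathway. Of 18 matrix ligands of alpha-V, alpha-5 or the related alpha-8 integrin, 15 were tested and 0 passed the threshold, with a median log2 fold change of -0.018 beside 0.0016 over all genes. Npnt, nephronectin, was at 128.8 ± 7.53 CPM in KO and 119.9 ± 5.99 CPM in WT mice (SD, n = 5 each, log2 fold change 0.10, SE 0.0455, edgeR adjusted p 0.788). Thbs1, thrombospondin 1, was at 1.22 ± 0.273 CPM in KO and 1.60 ± 0.247 CPM in WT mice (log2 fold change -0.40, SE 0.178, edgeR adjusted p 0.788). Mfge8, which bridges dying cells to alpha-V beta-3 and beta-5 on phagocytes, was at 96.8 ± 5.59 CPM in KO and 90.9 ± 1.61 CPM in WT mice (log2 fold change 0.09, SE 0.041, edgeR adjusted p 0.788). These 3 were the list's members with an unadjusted p under 0.05, where 6.29% of all genes had one. The genotypes overlapped for all 3.

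The latent TGF-beta complex, the cargo of alpha-V beta-8, had 9 of 9 members tested and 0 called, with 6 values above 0 and a median of 0.012. Ltbp4, a latent TGF-beta binding protein, was at 0.11 (SE 0.047, edgeR unadjusted p 0.0375, adjusted p 0.788), the ligand Tgfb3 at -0.10 (SE 0.0748) and Ltbp3 at 0.05 (SE 0.0686) on the log2 scale. All 30 adaptors and kinases that act on integrin tails were tested, with 0 called, 20 values above 0 and a median of 0.015. Parvb, Fermt3 and Ilk, of which Ilk is the integrin-linked kinase, Parvb its partner parvin and Fermt3 the kindlin of blood cells, had log2 fold changes of 0.09 (SE 0.045), 0.26 (SE 0.129) and 0.07 (SE 0.0405), with edgeR adjusted p-values of 0.789, 0.789 and 0.800. Hsp90aa1 and Cd81 were added as proteins reported to take part in irisin signalling at alpha-V integrins. Hsp90aa1, a chaperone, was at 422.3 ± 14.0 CPM in KO and 463.3 ± 35.0 CPM in WT mice (SD, n = 5 each, log2 fold change -0.13, SE 0.0466, edgeR unadjusted p 0.0108, adjusted p 0.788). Of all genes, 6.29% had an unadjusted p under 0.05. The tetraspanin Cd81 was at 218.7 ± 5.29 CPM in KO and 215.1 ± 7.80 CPM in WT mice (log2 fold change 0.02, SE 0.0348, edgeR adjusted p 0.922).

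For all 6 subunits the difference between genotype means was smaller than the SD of either genotype. The coefficient of variation was larger in KO than in WT mice for 6 of 6 subunits, against 43.6% of all genes tested: 10.4% in KO and 5.99% in WT mice for Itgav, 5.76% in KO and 2.38% in WT mice for Itgb1, 9.53% in KO and 4.45% in WT mice for Itgb5, and 25.0% in KO and 6.39% in WT mice for Itga5. Itgb3 varied by 16.0% in KO and 7.51% in WT mice and Itgb8 by 21.8% in KO and 20.0% in WT mice. Counting error alone gives about 16.0% in KO and 15.1% in WT mice for Itga5. It gives about 2.72% in KO and 2.64% in WT mice for Itgb1, and 10.7% in KO and 10.1% in WT mice for Itgb3. For Itga5, Itgb1 and Itgb3 the WT mice varied less than this, and for Itgav, Itgb5 and Itgb8 they varied more than counting error. Without KO mouse 3 the KO value was 7.11% for Itgav, 1.52% for Itgb1, 5.60% for Itgb5, 10.9% for Itgb3, 29.0% for Itga5 and 21.8% for Itgb8. That of Itgb1 was then below its counting error of about 2.73%. Leaving out KO mouse 3 left 5 of 6 subunits above their WT value, against 40.9% of all genes. The difference in spread was not tested.

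KO mouse 3 was the lowest of all 10 mice for 4 of the 6 subunits and below its genotype mean for 5, where 49.6% of all genes were below theirs. It was below by 0.22 on the log2 scale for Itgav, 0.15 for Itgb1, 0.34 for Itgb3, 0.22 for Itgb5 and 0.23 for Itgb8. KO mouse 2 was below its genotype mean for 0 of 6 subunits, against 50.3% of all genes, and the highest of 10 for Itga5, Itgb3 and Itgb8. Averaged over the 6 subunits, the deviation was 0.21 in KO mouse 2 and -0.172 in KO mouse 3. Astrocyte, endothelial and microglia markers were also lowest of 10 mice in KO mouse 3: the 10 astrocyte markers summed to 5305.7 CPM there, where the KO median was 5852.4 and the WT range 5581.1 to 6399.4, the 10 endothelial markers to 186.5 CPM (KO median 208.7, WT 192.0 to 235.5) and the 10 microglia markers to 314.3 CPM (KO median 351.6, WT 325.3 to 362.8). Slc1a2 alone was at 3474.7 ± 377.0 CPM in KO mice (SD, n = 5), so the astrocyte sum mostly follows that 1 gene. The lowest sum of all 10 mice was also in a KO mouse for oligodendrocyte, mural, GABAergic interneuron, CA pyramidal neuron and meningeal fibroblast markers. It was in a WT mouse for oligodendrocyte precursor, granule neuron and choroid plexus markers. The part of cell makeup in the low integrin values of KO mouse 3 was not tested.

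Over the 10 mice, with genotype means removed, Itgav and Itgb1 had a Pearson r of 0.81 (Spearman rho 0.733), Itgb1 and Itgb5 an r of 0.762 (rho 0.539) and Itgav and Itgb5 an r of 0.537 (rho 0.442). Itga5 had r between -0.445 and 0.278 with the other 5. Without KO mouse 3 its r was 0.658 with Itgb3, 0.393 with Itgav, 0.0355 with Itgb8, -0.188 with Itgb1 and -0.474 with Itgb5. Of all 15 pairs of subunits 12 had an r above 0, with a median of 0.338, and without KO mouse 3 these were 10 and 0.15. Among the 10 pairs without Itga5, the subunit with the lowest r, all r were above 0, with a median of 0.576. Much of this rested on KO mouse 3, without which that median was 0.156 and the r was 0.534 for Itgav with Itgb1, 0.162 for Itgb1 with Itgb5 and -0.0848 for Itgav with Itgb5. Of the 10 pairs 7 were then above 0, and Itgb3 with Itgb5, at an r of 0.255 over all mice, was at -0.828. All 10 libraries come from the same dissected tissue, and these correlations are descriptions with no test. How many pairs of other genes have an r above 0 is not given here.

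The same comparison with marker lists set the subunits beside the cell types of the tissue. Over 10 mice in each case, Itgav went with endothelial (r 0.754), astrocyte (r 0.742) and meningeal fibroblast markers (r 0.717). Itgb8 went with endothelial (r 0.792), meningeal fibroblast (r 0.772) and astrocyte markers (r 0.689). Itgb5 went with microglia (r 0.79), meningeal fibroblast (r 0.723), oligodendrocyte (r 0.705) and astrocyte markers (r 0.691). Without KO mouse 3 these were 0.637, 0.419 and 0.525 for Itgav, 0.775, 0.762 and 0.740 for Itgb8 and 0.609, 0.523, 0.718 and 0.195 for Itgb5. Itgb1 had 0.74 with astrocyte markers and 0.141 without KO mouse 3, so that relation rested on the 1 mouse. Itga5 ran opposite to the 10 oligodendrocyte markers (r -0.797, and -0.795 without KO mouse 3), which in KO mice summed to 1492.3 to 1867.7 CPM and in WT mice to 1500.8 to 1745.9 CPM. That r was the largest in size over all subunits and lists, so it was found by selection. Itga5 also had only 25 to 67 counts a library. With granule neuron markers the highest r was 0.465, for Itgb8, and without KO mouse 3 it was 0.783, for Itgb1. Genotypes overlapped in the summed level of all 11 of these lists. Of 5 blood cell genes, the 4 globin genes had 0 counts in all libraries, and that list was not compared.

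**Figure D4:**
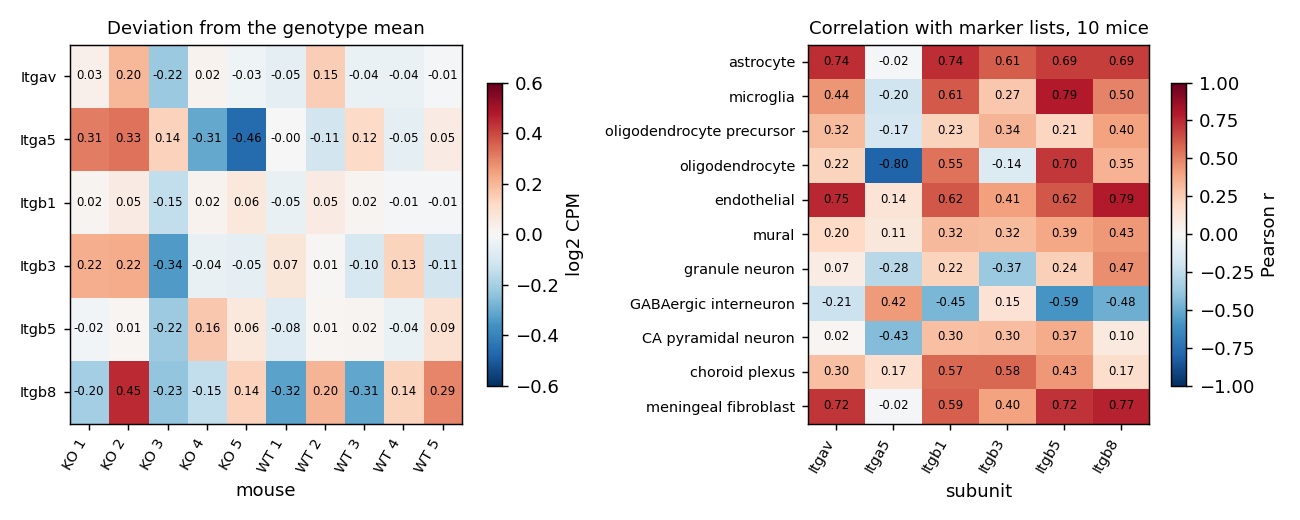
Left, deviation of each subunit from its genotype mean in each mouse (log2 CPM, KO mice left of WT mice, blue below and red above the mean). Right, Pearson r over 10 mice between each subunit and the mean of each marker list. KO mouse 3 is below its genotype mean for every subunit but Itga5, and KO mouse 2 is above its genotype mean for every subunit. In the right panel the lowest r is -0.80, for Itga5 beside oligodendrocyte markers, where Itgb3 is also below 0 (-0.14).

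The genes most like each subunit over the 10 mice were listed by the same measure among all genes tested, without predicted genes and pseudogenes. For Itgav these were Dab2, an endocytic adaptor (r 0.985, and 0.937 without the 2 mice farthest from the median), Dock1 (r 0.948, then 0.794) and Tmem229a (r 0.939, then 0.86). For Itgb8 they were Tanc2 (r 0.976), Dcn (r 0.965), which is also on the list of meningeal fibroblast markers, and Abhd2 (r 0.959), and leaving out the 2 farthest mice gave 0.981, 0.954 and 0.963. Itgb5 was most like Mccc1 (r 0.972), Rab31 (r 0.966) and Klhdc7a (r 0.947), which were 0.894, 0.823 and 0.729 without the 2 farthest mice. Itgb3 was most like Dock6 (r 0.977), Ccdc88b (r 0.971) and Dbi (r 0.929), which were then 0.942, 0.949 and 0.804. Itgb1 came nearest to Pcdh12 (r 0.943), Exoc4 (r 0.938) and Scd1 (r 0.932), which were 0.764, 0.736 and 0.768 without KO mouse 3 and WT mouse 1. Itga5 came nearest to Thnsl2 (r 0.974), Myh8 (r 0.944) and Zbtb39 (r 0.942), with 0.953, 0.885 and 0.858 once its 2 farthest mice were left out. With 14867 genes and 10 mice, values this high are found by selection, and they describe these libraries only.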

How the data were processed

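RNA of micro-dissected dentate gyrus from 5 Fndc5 KO and 5 WT mice was sequenced, 1 library a mouse. Per the labels' protocols, 500 ng of total RNA entered each stranded poly(A) library, read as single ends of 75 bases. The authors deposited raw read counts per gene symbol for all 10 libraries, with no normalization. The submitters' processing notes name STAR 2.5.1b, Cufflinks 2.2.1 and mm10, with no role or order. The sources used here do not give the strand setting or the handling of multi-mapping reads. Itgav has an exon that overlaps an exon of an antisense gene, Gm13684, so its count may include reads of that gene.

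Genes were filtered with filterByExpr (14867 left), scaled by TMM and compared with edgeR 4.0.16 (glmQLFit, glmQLFTest) in R 4.3.3, KO over WT, with Benjamini-Hochberg adjustment over all genes and a threshold of 0.05. The steps were tested on simulated data. For single genes, log2 CPM (prior count 2) were also permuted over all 252 assignments (exact, two-sided), which gives p-values down to 0.00794. SEs were derived from the F statistic. Coordinates and exon lengths come from GENCODE M21 (GRCm38), in which 24490 symbols matched. Depth was 26226375 to 43802079 counts, and counting error applies to reads, not molecules. Libraries of 1 genotype differed by more than counting noise (chi-square per degree of freedom at least 4.63), so each counted as 1 replicate. Alternatives were DESeq2 1.42.0, limma 3.58.1 voom with and without quality weights, other scalings and filters, the mouse number as a block and each library left out.

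The subunits and gene lists were chosen with earlier results of these data known. Beside the subunits and Fndc5, the genes named are the 3 with the smallest p of each list (both where a list has 2) and the 3 most like each subunit. The 12 marker lists were of astrocytes, microglia, oligodendrocytes and their precursors, endothelial and mural cells, granule, GABAergic and CA pyramidal neurons, choroid plexus, meningeal fibroblasts and blood cells. Lists with fewer than 3 genes tested were not correlated. Itga8, Itgam, Itgb6 and Prox1, named for their level, were chosen after their values were seen.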

Additional observations from a re-analysis of the deposited data

Results flagged for a closer look

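Of 70 groups of 5 mice checked for a mouse far from its group, 9 were found, where about 3.5 are expected by chance. Itgav was at 41.8 CPM in WT mouse 2, above the other WT mice at 36.3 to 37.4. Itgb1 was at 40.3 CPM in KO mouse 3, below the other KO mice at 45.3 to 46.6. Itga6 was highest in mouse 2 of both genotypes, at 32.9 CPM in KO mouse 2 (the others 26.1 to 27.9) and 34.8 CPM in WT mouse 2 (the others 27.4 to 29.2). Itgb2, the beta chain of leukocytes and microglia, was at 4.96 CPM in KO mouse 1 (the others 4.01 to 4.24) and 5.35 CPM in WT mouse 5 (the others 4.03 to 4.29). Npnt was at 141.9 CPM in KO mouse 3, above the other KO mice at 123.3 to 127.7, although that mouse was the lowest for 4 of the 6 subunits. In WT mouse 1 the granule neuron markers summed to 1736.6 CPM (the other WT mice 1954.6 to 1994.4) and the GABAergic interneuron markers to 725.5 CPM (the other WT mice 631.9 to 655.7). The causes were not tested.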

How the results depend on the processing

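No subunit passed the threshold in any of 18 alternatives: the lowest edgeR adjusted p of any subunit was 0.647, without KO mouse 2. Fndc5 passed in all 18, with log2 fold changes of -0.59 to -0.51. With single libraries left out the log2 fold change ran from -0.10 to 0.0026 for Itgav, -0.09 to 0.08 for Itga5, -0.05 to 0.0037 for Itgb1, -0.13 to 0.01 for Itgb3, -0.01 to 0.09 for Itgb5, -0.20 to 0.01 for Itgb8, -0.12 to 0.01 for Itgb4 and -0.08 to 0.05 for Itgb2, so no direction can be read for any of them. The exact permutation p then ran from 0.151 to 1.0 for Itgav, 0.437 to 0.929 for Itga5, 0.317 to 0.865 for Itgb1, 0.27 to 0.984 for Itgb3, 0.0952 to 0.913 for Itgb5 and 0.31 to 0.992 for Itgb8, a check added after seeing the data, as was leaving out libraries in the correlations and in the spread. The count of genes past the threshold was 1, and 3 with the DESeq2 Wald test, 8 with the mouse number as a replicate block and 1 to 3 when a library was dropped (2 without KO mouse 2, 3 without WT mouse 1). The cause was not tested. Same-numbered mice correlated at 0.209, 0.204, 0.108, 0.00901 and 0.0282, not all above 0.1, and nothing in the labels ties equal numbers to one litter or batch, so the block stayed an alternative. As a hint from the data, 6 of 10 libraries correlated best with their own number, each among the 5 libraries of the other genotype. In the sample descriptions, WT and KO libraries of equal mouse number also carry adjacent running numbers. Whether mouse numbers mark pairs was not settled. Under the block 0 subunits passed (lowest adjusted p 0.724). Genes with an edgeR unadjusted p under 0.05 numbered 1493 with the block and 935 without it. With the longest transcript as length, the mean level was 5.26 CPM per kb for Itgav, 11.9 for Itgb1, 9.47 for Itgb5 and 0.534 for Itgb8, against 3.45, 11.1, 8.75 and 0.406 with all exons. Counts were fewest for Itga5, at 25 to 67 a library.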
